A study of Mus musculus with 12 samples.

Results

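The 10 genes described here are Trp53, which encodes the tumour suppressor p53, its regulators Mdm2 and Mdm4, and 7 known p53 targets (Sesn1, Zmat3, Trp53inp1, Phlda3, Gdf15, Eda2r and Aen). They were taken by name from p53 biology, with earlier results of these data known. All 10 were among the 37991 genes in the count files, where 9 passed the filter on low counts and were tested. The counts came from 12 libraries of polyadenylated RNA of induced MEL cells, mouse erythroleukaemia cells that take on red cell features when induced, in 4 groups of 3. FL was LDB1 knockdown cells that expressed a full-length Ldb1 construct, delta45 was knockdown cells that expressed an Ldb1 delta 4/5 construct, KD was the LDB1 knockdown alone, and control was MEL cells labelled as control, which the protocol calls wild type. LDB1 is an adaptor that joins erythroid transcription factors such as GATA1 and TAL1. FL and delta45 thus carry the knockdown as well as a construct. The labels give neither the knockdown method nor whether a line is a single clone, so effects of LDB1 and other differences between the lines cannot be told apart. Whether the 3 libraries of each group are separate cultures is not stated, so p-values speak only to the scatter among these libraries, part or all of which may be technical.

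p53 is a transcription factor that is kept at low amounts in unstressed cells. MDM2, a ubiquitin ligase, marks p53 for destruction and blocks its activation domain, and MDM4, a relative of MDM2, binds the same domain. p53 in turn activates Mdm2, which closes a negative feedback loop, and it activates genes for growth arrest, repair, metabolism and cell death. Because p53 is controlled largely at the protein level, Trp53 mRNA does not measure p53 activity, and erythroleukaemia lines made with Friend virus often carry altered Trp53 alleles. Whether these cells hold a working p53 protein was not tested.

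Each library held between 8783970 and 20464959 reads counted in genes. Levels are CPM (gene reads scaled to a common library size by the trimmed mean of M-values, TMM). Log2 changes and their SE come from a quasi-likelihood fit in edgeR, and a change was called where the Benjamini-Hochberg adjusted p over 12837 tested genes was under 0.05. Ldb1 stood at 3439 ± 244 CPM in FL, 765 ± 15.4 CPM in delta45, 130 ± 31.1 CPM in KD and 718 ± 71.2 CPM in control (SD, n = 3 each). It was lowest in KD and highest in FL, and its counts do not tell a construct from the cell's own gene. Summed levels of 8 erythroid genes were 21900 to 29400 CPM in FL, 2460 to 2800 CPM in delta45, 1880 to 3750 CPM in KD and 10100 to 10300 CPM in control. Summed levels of 8 markers of lymphoid, myeloid, endothelial and stromal cells did not pass 12 CPM in any library, with Ms4a1 at 0 reads throughout. The KD libraries differed among themselves in 10 interferon response genes, whose sums were 194 to 197 CPM in FL, 135 to 145 CPM in delta45, 286, 4930 and 12400 CPM in KD replicates 1, 2 and 3, and 1200 to 1480 CPM in control. Reads with more than 1 alignment were 42.26 to 47.12% of tallied reads in FL, 38.69 to 39.22% in delta45, 42.69 to 48.51% in KD and 50.6 to 53.31% in control. The part of these differences in the results was not tested. In bulk RNA, fewer cells of a type and less RNA per cell cannot be told apart.

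Promoter windows (250 bases before to 50 after a gene start, from RefSeq on GRCm38.p6, another build than the mm9 of the counts) were matched by symbol for 8 of the 10 genes, in 12 windows. They were searched on both strands for the decamer that p53 response elements repeat, for GATAA, the core that GATA1 recognises, and for CANNTG, the E-box that TAL1 dimers bind. The p53 decamer was present in 5 windows of 4 genes (Trp53, Mdm2, Sesn1 and Aen), against 8.36% of all 32851 windows of 300 bases. The windows of Aen overlap and share 1 match, so the 5 windows hold 4 distinct matches. GATAA was found in a window of 1 gene, Mdm4, against 25.4% of all windows, and CANNTG was found in 8 of the 12 windows, against 72.3% of all windows. A match is a description of letters and not a binding site. Of the 4 genes with the decamer, Trp53, Mdm2 and Sesn1 had their highest levels in FL and Aen in delta45. Cdkn1a, a further p53 target searched in the same way, had 2 matches of the decamer in a window and its highest level in KD. No window was matched for Zmat3 and Trp53inp1. A link between matches and levels was not tested. The sequences of Trp53, Mdm2, Sesn1 and Aen follow. The first 3 show the 250 bases before the start and Aen a stretch of 30 bases around the match. Capitals mark the decamer, and all are written 5′ to 3′ on the strand of the gene.
Trp53, chr11:69580109-69580358, plus strand: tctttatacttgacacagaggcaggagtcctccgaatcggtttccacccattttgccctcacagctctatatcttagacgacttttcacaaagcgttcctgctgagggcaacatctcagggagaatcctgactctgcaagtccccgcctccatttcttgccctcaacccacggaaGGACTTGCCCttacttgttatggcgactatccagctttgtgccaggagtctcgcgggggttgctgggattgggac
Mdm2, chr10:117710759-117711008, minus strand: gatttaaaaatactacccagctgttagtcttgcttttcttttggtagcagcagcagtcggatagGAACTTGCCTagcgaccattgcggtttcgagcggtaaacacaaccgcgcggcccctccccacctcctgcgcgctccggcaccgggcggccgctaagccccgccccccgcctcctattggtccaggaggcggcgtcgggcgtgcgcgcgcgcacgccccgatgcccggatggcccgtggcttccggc
Sesn1, chr10:41887189-41887438, plus strand: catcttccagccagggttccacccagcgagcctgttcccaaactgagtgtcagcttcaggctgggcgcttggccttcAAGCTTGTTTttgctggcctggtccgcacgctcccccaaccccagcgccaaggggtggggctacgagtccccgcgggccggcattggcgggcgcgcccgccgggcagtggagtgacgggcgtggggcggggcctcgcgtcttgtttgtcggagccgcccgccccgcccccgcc
Aen, chr7:78895927-78895956, plus strand: agccgaagccGGGCTTGTCCgggcaaggag

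Trp53 mRNA was highest in FL, intermediate in delta45 and lower in KD and control. The FL libraries held 558, 564 and 592 CPM, the delta45 libraries 289, 338 and 315 CPM, the KD libraries 139, 189.6 and 227 CPM, and the control libraries 197, 175 and 188 CPM. FL lay above every library of the other groups, delta45 lay above every KD and control library, and KD and control overlapped. Relative to KD, Trp53 rose 3.09-fold in FL (log2 change 1.63 ± 0.15, edgeR adjusted p = 1.42e-06) and 1.70-fold in delta45 (0.76 ± 0.15, edgeR adjusted p = 0.000678). FL was 1.82-fold above delta45 (edgeR adjusted p = 0.000246) and 3.06-fold above control (edgeR adjusted p = 1.2e-06), and delta45 was 1.68-fold above control (edgeR adjusted p = 0.000573). KD and control were not called different (log2 change -0.01 ± 0.15, edgeR adjusted p = 0.952). Within KD, the library with the lowest interferon sum also had the lowest Trp53 level, and the part of the interferon state was not tested. A processed copy, Trp53-ps, was read at 16.04 ± 3.53 CPM in FL, 8.55 ± 0.473 CPM in delta45, 4.73 ± 0.620 CPM in KD and 4.83 ± 1.02 CPM in control (SD, n = 3 each). Reads of Trp53 and of this copy may have been split between them, so both levels are uncertain.

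**Figure D1:**
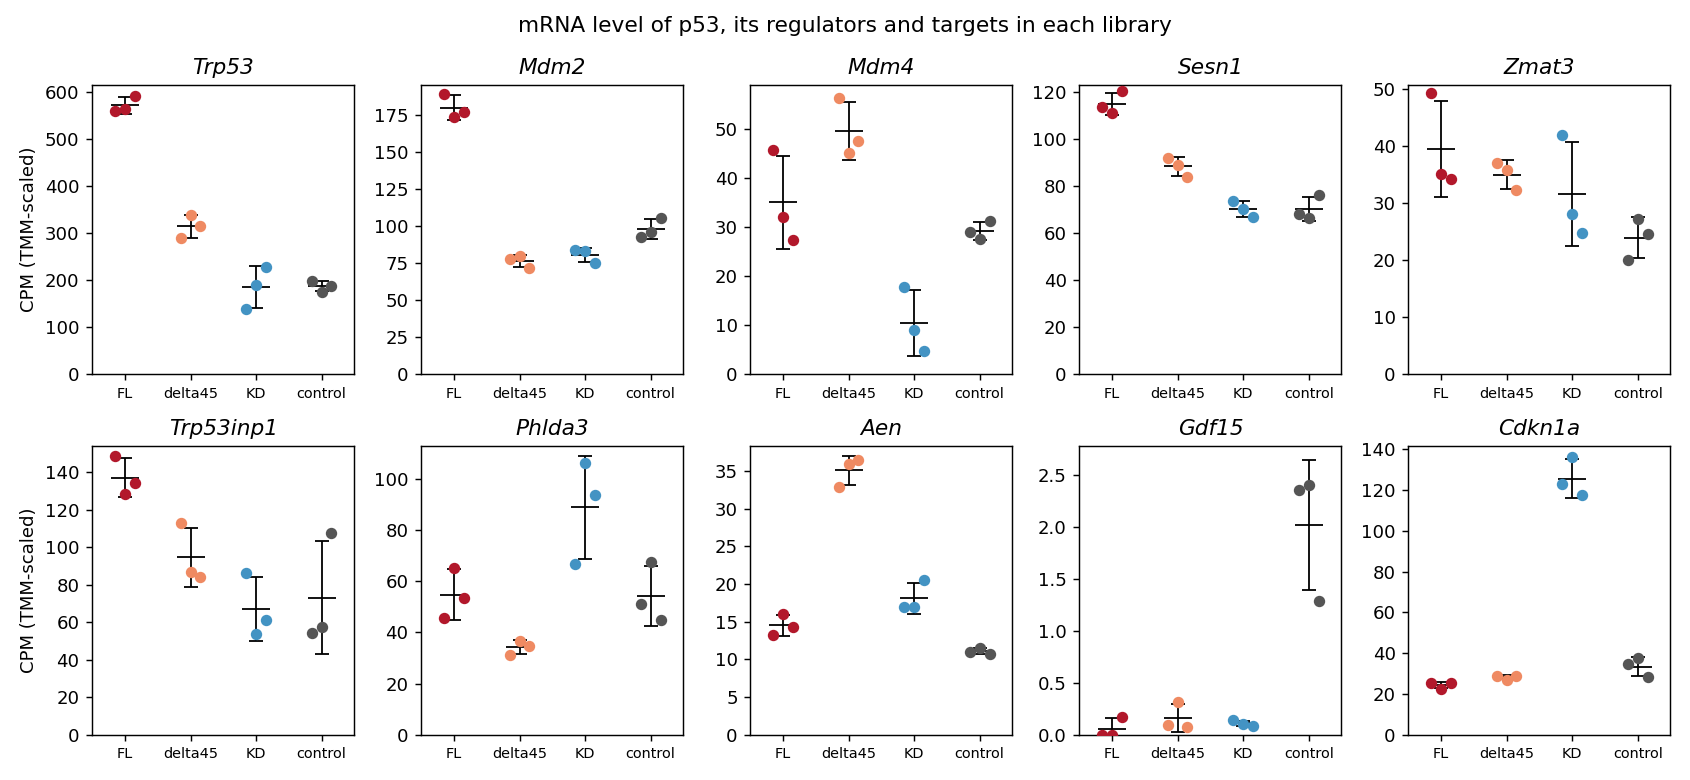
Level of 9 of the genes and of Cdkn1a in each library (points, CPM after TMM scaling, linear axes from 0) with the mean and SD of 3 libraries per group (black bars). Trp53, Mdm2, Sesn1, Zmat3 and Trp53inp1 had their highest means in FL, and Mdm4 and Aen in delta45. Phlda3 and Cdkn1a had theirs in KD and Gdf15 in control.

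Mdm2 was highest in FL alone. Its libraries held 189.6, 174 and 177 CPM in FL, 77.56, 79.997 and 71.7 CPM in delta45, 83.7, 83.4 and 75.4 CPM in KD, and 92.6, 96.3 and 106 CPM in control. Every FL library lay above every other library, every control library lay above those of delta45 and KD, and delta45 and KD overlapped. Mdm2 rose 2.23-fold in FL relative to KD (log2 change 1.16 ± 0.10, edgeR adjusted p = 6.45e-07), 2.36-fold relative to delta45 (edgeR adjusted p = 2.42e-07) and 1.83-fold relative to control (edgeR adjusted p = 5.68e-06). Between delta45 and KD no difference was called (log2 -0.08 ± 0.10, edgeR adjusted p = 0.484), while Trp53 was higher in delta45. Relative to control, Mdm2 was 1.29-fold lower in delta45 (edgeR adjusted p = 0.00481) and 1.22-fold lower in KD (log2 change -0.28 ± 0.10, edgeR adjusted p = 0.0263). The KD call was lost in 5 of 19 alternatives, where the adjusted p reached 0.116, among them the fits without KD replicate 3 (0.0617) and without control replicate 3 (0.0826).

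Mdm4 followed another order. A processed pseudogene lies on the opposite strand within it. The FL libraries held 45.6, 32.1 and 27.3 CPM, the delta45 libraries 56.3, 44.98 and 47.5 CPM, the KD libraries 17.7, 8.90 and 4.64 CPM, and the control libraries 28.9, 27.5 and 31.2 CPM. KD lay below every other library, and FL overlapped both delta45 and control. Mdm4 fell 2.76-fold in KD relative to control (log2 change -1.47 ± 0.34, edgeR adjusted p = 0.00315), was 3.30-fold higher in FL than in KD (edgeR adjusted p = 0.000843) and 4.69-fold higher in delta45 than in KD (log2 change 2.23 ± 0.34, edgeR adjusted p = 0.000131). Mdm4 varied widely within KD: without KD replicate 1 these log2 changes of Mdm4 were -2.14, 2.45 and 2.92. The KD library with the highest Mdm4 had the lowest interferon sum, and the part of that state was not tested. FL minus delta45 was not called (log2 change -0.51 ± 0.32, edgeR adjusted p = 0.197), but was in a fit to those 2 groups alone (adjusted p = 0.0117). Delta45 minus control was not called either (0.76 ± 0.32, edgeR adjusted p = 0.0509), although its libraries did not overlap those of control, and it was called in several alternatives, among them the fit without KD replicate 1 (edgeR adjusted p = 0.00307).

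The ratio of each regulator to Trp53 had its own order of groups. These ratios are of read counts within a library. Their size depends on transcript lengths, and only their differences between groups are read. Mdm2 reads per Trp53 read averaged 0.315 ± 0.0214 in FL, 0.244 ± 0.0214 in delta45, 0.458 ± 0.135 in KD and 0.528 ± 0.05 in control (SD, n = 3 each). All FL and delta45 ratios lay below those of control, by 1.67-fold and 2.16-fold in the means (two-sided exact permutation p = 0.1 for each, the smallest that 3 against 3 libraries allow). Mdm4 reads per Trp53 read averaged 0.0616 ± 0.0183 in FL, 0.160 ± 0.0319 in delta45, 0.0649 ± 0.0556 in KD and 0.157 ± 0.0095 in control. Here FL was 2.59-fold below delta45 and 2.54-fold below control without overlap (exact permutation p = 0.1 for each), while delta45 and control overlapped (exact permutation p = 0.9). Of the 18 contrasts of 3 ratios, none can pass 0.05 in this design.

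**Figure D2:**
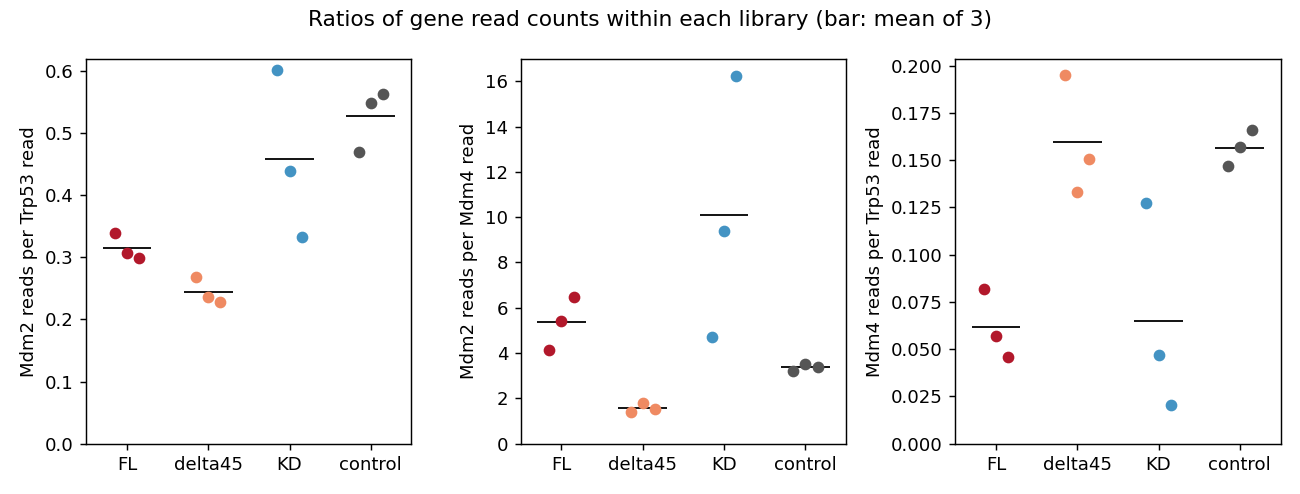
Mdm2 reads per Trp53 read, Mdm2 reads per Mdm4 read and Mdm4 reads per Trp53 read in each library (points), with the mean of 3 libraries per group (bar), linear axes from 0. FL and delta45 lie below control for Mdm2 per Trp53, and the KD libraries spread from 4.73 to 16.2 for Mdm2 per Mdm4.

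Among the targets, Sesn1, a sestrin that restrains the growth kinase mTORC1, followed the order of Trp53. Its libraries held 114, 111 and 120.1 CPM in FL, 91.8, 88.9 and 83.9 CPM in delta45, 73.7, 70.1 and 66.8 CPM in KD, and 68.0, 66.5 and 76.2 CPM in control. FL lay above delta45, delta45 lay above KD and control, and KD and control overlapped. The annotation places 9930024M15Rik, an unverified transcript, over Sesn1 on the same strand, so reads could be split between them. Relative to KD, Sesn1 rose 1.64-fold in FL (log2 change 0.71 ± 0.10, edgeR adjusted p = 3.81e-05) and 1.26-fold in delta45 (0.33 ± 0.09, edgeR adjusted p = 0.00914). FL was 1.30-fold above delta45 (edgeR adjusted p = 0.00409), a call lost when libraries were scaled by their totals only (log2 change 0.11, adjusted p = 0.402).

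Trp53inp1, whose nuclear protein promotes p53-dependent cell death, stood at 149, 128 and 134 CPM in FL, 113, 86.8 and 84.0 CPM in delta45, 86.2, 53.7 and 61.4 CPM in KD, and 54.4, 57.3 and 108 CPM in control. FL lay above every other library, and the other 3 groups overlapped one another, with 1 control library near the delta45 level. The gene rose 2.04-fold in FL relative to KD (log2 change 1.03 ± 0.25, edgeR adjusted p = 0.00299) and 1.87-fold relative to control (edgeR adjusted p = 0.00638). FL minus delta45 was not called (0.54 ± 0.24, edgeR adjusted p = 0.0792), nor was delta45 minus KD (0.49 ± 0.24, edgeR adjusted p = 0.0959). With a replicate block over the 9 libraries other than control, an alternative added after the data were seen, delta45 minus KD was called (edgeR adjusted p = 0.00236). Leaving out KD replicate 1 or control replicate 3 also gave calls for Trp53inp1 in FL minus delta45 (0.0306 and 0.013) and in delta45 minus KD (0.016 and 0.0198), as did leaving out delta45 replicate 1 in FL minus delta45 (0.0467). Without control replicate 3, Trp53inp1 in delta45 minus control was called as well (log2 change 0.78, edgeR adjusted p = 0.00449).

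Zmat3, which encodes an RNA-binding zinc finger protein, had its lowest mean in control. It stood at 49.2, 35.1 and 34.1 CPM in FL, 37.0, 35.7 and 32.2 CPM in delta45, 41.8, 28.007 and 24.7 CPM in KD, and 20.0, 27.2 and 24.5 CPM in control. FL and delta45 lay above control without overlap, and KD overlapped all 3 other groups. It rose 1.65-fold in FL (log2 change 0.72 ± 0.20, edgeR adjusted p = 0.00812) and 1.46-fold in delta45 (edgeR adjusted p = 0.0295) relative to control. The FL call was lost with library totals only (adjusted p = 0.0687). The delta45 call on Zmat3 was lost without delta45 replicate 1 (edgeR adjusted p = 0.0729) or 2 (0.0593), and without control replicate 1 (0.119) or 3 (0.0534). Relative to KD it was not called in FL (0.32 ± 0.20, edgeR adjusted p = 0.191), or in delta45 (0.15 ± 0.20, edgeR adjusted p = 0.546). FL minus KD of Zmat3 was called with the replicate block over the 9 libraries (adjusted p = 0.0284) and without KD replicate 1 (0.00685), and delta45 minus KD without KD replicate 1 (0.0452). KD minus control (0.40 ± 0.20, edgeR adjusted p = 0.117) was called without KD replicate 3 (0.0365).

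Phlda3, whose protein competes with the survival kinase AKT for membrane lipids, went the other way and was highest in KD. It stood at 45.5, 65.2 and 53.4 CPM in FL, 31.3, 36.8 and 34.8 CPM in delta45, 66.7, 106 and 93.7 CPM in KD, and 51.0, 67.5 and 44.8 CPM in control. Delta45 lay below every other library, and 1 KD library fell within the control range. Phlda3 fell 2.59-fold in delta45 relative to KD (log2 change -1.37 ± 0.20, edgeR adjusted p = 7.4e-05) and 1.62-fold in FL relative to KD (-0.70 ± 0.19, edgeR adjusted p = 0.00744), and was 1.63-fold higher in KD than in control (edgeR adjusted p = 0.00833). FL was 1.59-fold above delta45 (edgeR adjusted p = 0.0104), and delta45 was 1.58-fold below control (edgeR adjusted p = 0.00895). Single libraries decided some of these calls: the adjusted p of Phlda3 was 0.0629 for FL minus KD without KD replicate 2, 0.0543 for FL minus delta45 without FL replicate 2 (0.0916 with library totals only) and 0.0522 for delta45 minus control without control replicate 2. FL and control were not called different (log2 change 0.01 ± 0.19, edgeR adjusted p = 0.972).

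Aen, the apoptosis-enhancing nuclease, was highest in delta45. It stood at 13.2, 16.04 and 14.3 CPM in FL, 32.8, 36.0 and 36.4 CPM in delta45, 16.9, 16.9 and 20.5 CPM in KD, and 11.04, 11.5 and 10.8 CPM in control. The groups did not overlap in any pair. Aen rose 1.93-fold in delta45 relative to KD (log2 change 0.95 ± 0.13, edgeR adjusted p = 4.22e-05) and 3.16-fold relative to control (edgeR adjusted p = 2.59e-07), and was 2.41-fold lower in FL than in delta45 (edgeR adjusted p = 2.63e-06). It was 1.63-fold higher in KD than in control (edgeR adjusted p = 0.000682). The lower level in FL relative to KD was at the edge of the test (log2 change -0.32 ± 0.13, edgeR adjusted p = 0.0487), and the call was lost in 16 of 20 alternatives, the replicate block over 9 libraries included (adjusted p = 0.0904). It was lost without any 1 of the 12 libraries other than FL replicate 2, with an adjusted p from 0.0585 to 0.158. FL minus control (1.31-fold, edgeR adjusted p = 0.023) was lost in 5 of 19 alternatives, among them the fits without FL replicate 2 (0.0901) or 3 (0.0512) and without control replicate 1 (0.0577).

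Gdf15, a secreted cytokine of the TGF-beta superfamily, was scarce. It had 0, 0 and 3 reads in FL, 2, 5 and 1 reads in delta45, 2, 1 and 1 reads in KD, and 22, 24 and 22 reads in control. Control lay above every other library, at 2.02 ± 0.630 CPM (SD, n = 3). The gene passed the filter on low counts only through control, so it had to differ. Ratios of summed reads put it 22-fold below control in FL (95% exact binomial interval 7.2 to 109), 11.7-fold below in delta45 (5.64 to 28.3) and 16.4-fold below in KD (6.11 to 61.8), intervals that cover counting error only. The edgeR adjusted p-values were 0.000102 in FL, 0.000107 in delta45 and 0.000227 in KD. Eda2r, a receptor for the ectodysplasin isoform A2, had 2 and 3 reads in delta45 replicates 1 and 2, and 0 reads in the other 10 libraries. Its 0 counts allow up to 0.176 to 0.349 CPM, and it was not tested.

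Over the 9 tested genes, called changes were read against those of all tested genes. In FL minus KD 7 were called, 5 higher and 2 lower, against 58% of all tested genes, 26.3% higher and 31.7% lower. In delta45 minus KD 5 were called, 4 higher and 1 lower, against 59.9%, 29.2% higher and 30.7% lower. In FL minus delta45 5 were called, 4 higher and 1 lower, against 52.8%, 25.8% higher and 27% lower. With library totals only 3 of the 9 were called there, where the median log2 change of all tested genes moved to -0.28. The share of all tested genes called under that scaling is not given here, so the 3 are not read against it. In KD minus control 5 were called, 2 higher and 3 lower, against 49.7%, 25.6% higher and 24.1% lower. In FL minus control 7 were called, 6 higher and 1 lower, against 59.3%, 28.1% higher and 31.2% lower. In delta45 minus control 7 were called, 4 higher and 3 lower, against 64.4%, 31.9% higher and 32.5% lower. The share of members called was thus near that of all genes in KD minus control, delta45 minus KD and FL minus delta45. It was higher in FL minus KD, FL minus control and delta45 minus control, but 9 genes are too few to set the members apart. Gdf15, which passed the filter only through control, is among those called in each comparison with control.

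Groups whose 3 libraries did not overlap gave much the same counts. In FL minus KD 5 of the 9 lay wholly higher and 2 wholly lower, against 59.7% of all tested genes, 28.4% higher and 31.3% lower. In delta45 minus KD 4 lay higher and 1 lower, against 63.5%, 32.4% higher and 31% lower. In FL minus delta45 5 lay higher and 1 lower, against 69%, 33.7% higher and 35.2% lower. In KD minus control 1 lay higher and 3 lower, against 50.7%, 25.5% higher and 25.3% lower. In FL minus control 6 lay higher and 1 lower, against 69.8%, 33.6% higher and 36.1% lower. In delta45 minus control 5 lay higher and 3 lower, against 74.5%, 37.4% higher and 37.1% lower. Since Gdf15 entered through control alone, these counts describe and do not test the 9 genes. The comparisons share groups and are not independent. Scaling by library totals only shifted the median log2 change of all genes to -0.33 in FL minus KD, -0.28 in FL minus delta45 and -0.23 in FL minus control, and the share of calls that were higher to 26.7%, 29.2% and 31.8%, against 45.4%, 48.8% and 47.4% with TMM. Under that scaling Trp53 and Mdm2 were still called higher in FL in all 3 of these comparisons.

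**Figure D3:**
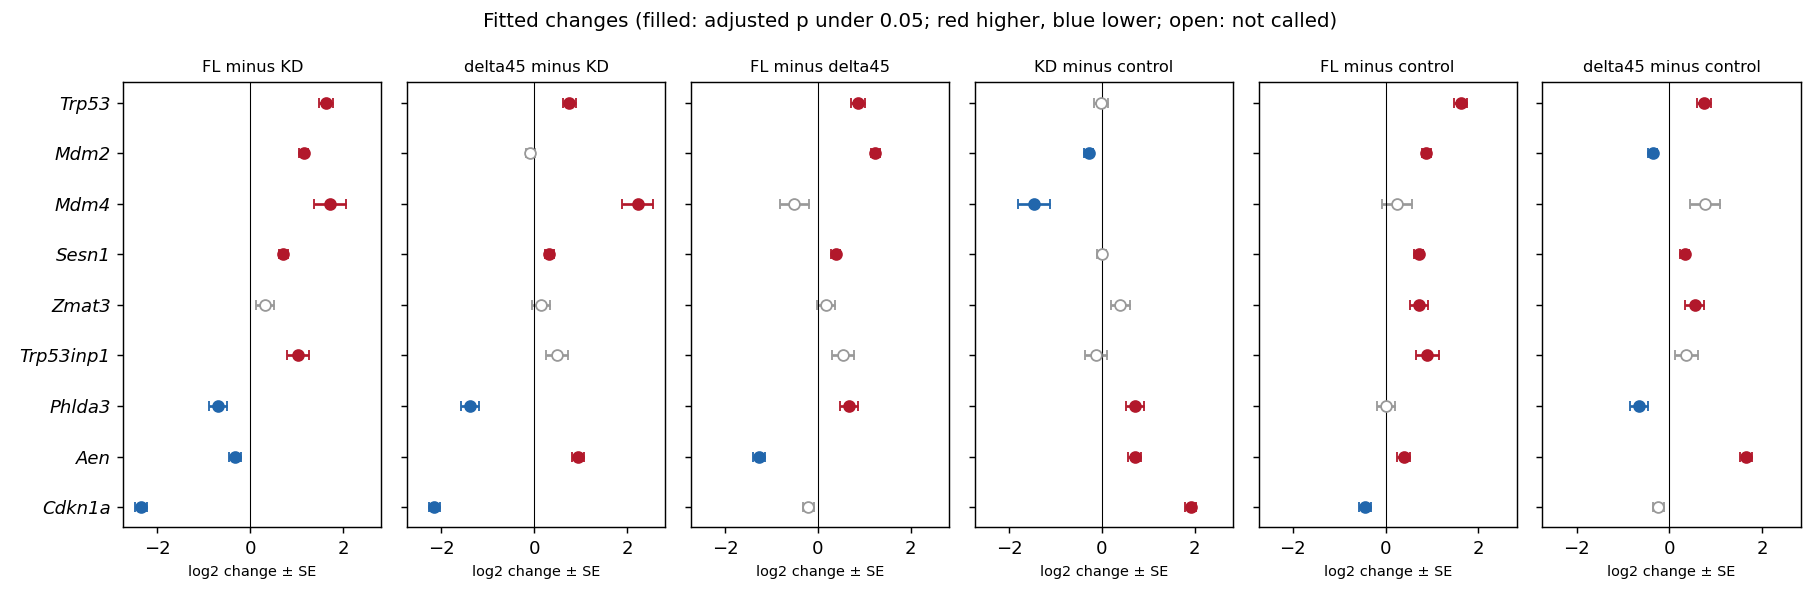
Log2 change ± SE from edgeR in the 6 comparisons for 8 of the tested genes and Cdkn1a (red filled, higher at an adjusted p under 0.05; blue filled, lower; grey open, not called). Trp53 and Mdm2 are higher in FL in each comparison that involves it, and Cdkn1a is lower in FL and delta45 than in KD.

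Among other p53 targets, Cdkn1a, which encodes the cell cycle inhibitor p21 and is the best known p53 target, stood at 25.4, 22.7 and 25.2 CPM in FL, 28.7, 27.1 and 28.9 CPM in delta45, 123, 136 and 118 CPM in KD, and 34.7, 37.5 and 28.15 CPM in control. KD lay above every other library by a wide margin. Cdkn1a fell 5.13-fold in FL (log2 change -2.36 ± 0.12, edgeR adjusted p = 1.38e-08) and 4.45-fold in delta45 (-2.15 ± 0.12, edgeR adjusted p = 4.52e-08) relative to KD, and was 3.76-fold higher in KD than in control (edgeR adjusted p = 1.38e-07). Relative to control, Cdkn1a was 1.36-fold lower in FL, without overlap of libraries (edgeR adjusted p = 0.00673). Delta45 minus control was not called (-0.24 ± 0.12, edgeR adjusted p = 0.096), but was without control replicate 3 (0.0208). FL and delta45 were not called different (-0.21 ± 0.12, edgeR adjusted p = 0.171). With library totals only Cdkn1a was called lower in FL than in delta45 (log2 change -0.48, adjusted p = 0.00541).

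A list of 30 further targets, Cdkn1a included, had 27 tested genes. In FL minus KD 8 were higher and 12 lower, against 26.3% and 31.7% of all tested genes. In delta45 minus KD 7 were higher and 7 lower, against 29.2% and 30.7%. In FL minus delta45 the list had 10 higher and 7 lower, against 25.8% and 27%. In KD minus control it had 8 higher and 7 lower, against 25.6% and 24.1%. It had 7 higher and 10 lower in FL minus control (28.1% and 31.2%), and 6 higher and 6 lower in delta45 minus control (31.9% and 32.5%). The median log2 change was -0.35 in FL minus KD, beside -0.06 for all tested genes, and -0.06 in KD minus control, beside 0.02. With library totals only, 5 of the list were higher in FL minus KD and 11 lower in FL minus delta45. Under that scaling the median log2 change of all tested genes was -0.33 and -0.28 in these comparisons. Of all calls, 26.7% and 29.2% were higher. The 2 counts are thus not read as results about the list.

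By group mean, 6 of the 27 were highest in FL, 8 in delta45, 7 in KD and 6 in control. All tested genes were not counted in this way, so the split is not read as a trait of the list. Among those highest in FL, Btg2, an antiproliferative factor, averaged 2026 ± 20.7 CPM in FL, 514 ± 27.9 CPM in delta45, 446 ± 118 CPM in KD and 341 ± 40.6 CPM in control (SD, n = 3 each). It rose 4.55-fold in FL relative to KD (edgeR adjusted p = 3.59e-07) and 3.94-fold relative to delta45 (edgeR adjusted p = 5.91e-07). Gadd45a, a stress sensor of growth arrest, averaged 232 ± 17.1 CPM in FL, 74.7 ± 1.77 CPM in delta45, 53.7 ± 10.97 CPM in KD and 156 ± 5.17 CPM in control. It rose 4.34-fold in FL relative to KD (edgeR adjusted p = 6.94e-08) and was 2.91-fold lower in KD than in control (edgeR adjusted p = 1.93e-06). The phosphatase gene Ptp4a3 reached 4149 ± 325 CPM in FL, against 209 ± 23.0 CPM in delta45 and 490 ± 257 CPM in KD.

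Among those highest in KD besides Cdkn1a, Sesn2, a sestrin like Sesn1, averaged 180.1 ± 10.9 CPM in FL, 124 ± 8.70 CPM in delta45, 273 ± 44.3 CPM in KD and 126 ± 13.2 CPM in control (SD, n = 3 each). It fell 1.51-fold in FL and 2.19-fold in delta45 relative to KD (edgeR adjusted p = 0.00143 and 1.21e-05), the direction opposite to that of Sesn1. Ddit4, another inhibitor of mTORC1, averaged 366 ± 54.6 CPM in FL, 159 ± 4.12 CPM in delta45, 782 ± 174 CPM in KD and 351 ± 67.1 CPM in control. It fell 4.92-fold in delta45 relative to KD (edgeR adjusted p = 6.53e-07) and was 2.23-fold higher in KD than in control (edgeR adjusted p = 0.000154). Ak1, an adenylate kinase gene, was low, at 3.96 ± 0.651 CPM in FL, 0.948 ± 0.0965 CPM in delta45, 9.75 ± 1.396 CPM in KD and 1.35 ± 0.361 CPM in control. It fell 2.44-fold in FL and 10.2-fold in delta45 relative to KD (edgeR adjusted p = 0.000297 and 3.81e-07), and was 6.95-fold higher in KD than in control (edgeR adjusted p = 2.09e-06).

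Among those highest in delta45, Pidd1, the scaffold of the caspase-2 platform, averaged 3.92 ± 0.841 CPM in FL, 40.1 ± 6.98 CPM in delta45, 12.6 ± 2.90 CPM in KD and 18.5 ± 1.42 CPM in control (SD, n = 3 each). It rose 3.16-fold in delta45 relative to KD (edgeR adjusted p = 1.34e-05) and was 10.1-fold lower in FL than in delta45 (edgeR adjusted p = 3.84e-08). Ddb2, a sensor of ultraviolet damage, rose 1.72-fold and Ckap2, a spindle protein, 1.74-fold in delta45 relative to KD (edgeR adjusted p = 0.00332 and 0.000315). Among those highest in control, Psrc1, a microtubule regulator, averaged 4.64 ± 0.474 CPM in FL and 49.5 ± 6.63 CPM in control, 10.6-fold lower in FL (edgeR adjusted p = 2.76e-08). Pmaip1, which encodes the death factor NOXA, was 1.77-fold lower in FL, 3.09-fold lower in delta45 and 2.08-fold lower in KD than in control (edgeR adjusted p = 0.00945, 6.84e-05 and 0.00269). Of the repair genes, Xpc was 1.81-fold lower in FL than in control (edgeR adjusted p = 0.000148), and Ercc5 was 1.41-fold higher in delta45 than in KD (0.00119). Fbxw7, a ubiquitin ligase subunit gene, was 1.82-fold higher in FL and 1.39-fold higher in delta45 than in control (edgeR adjusted p = 1.43e-05 and 0.00148).

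**Figure D4:**
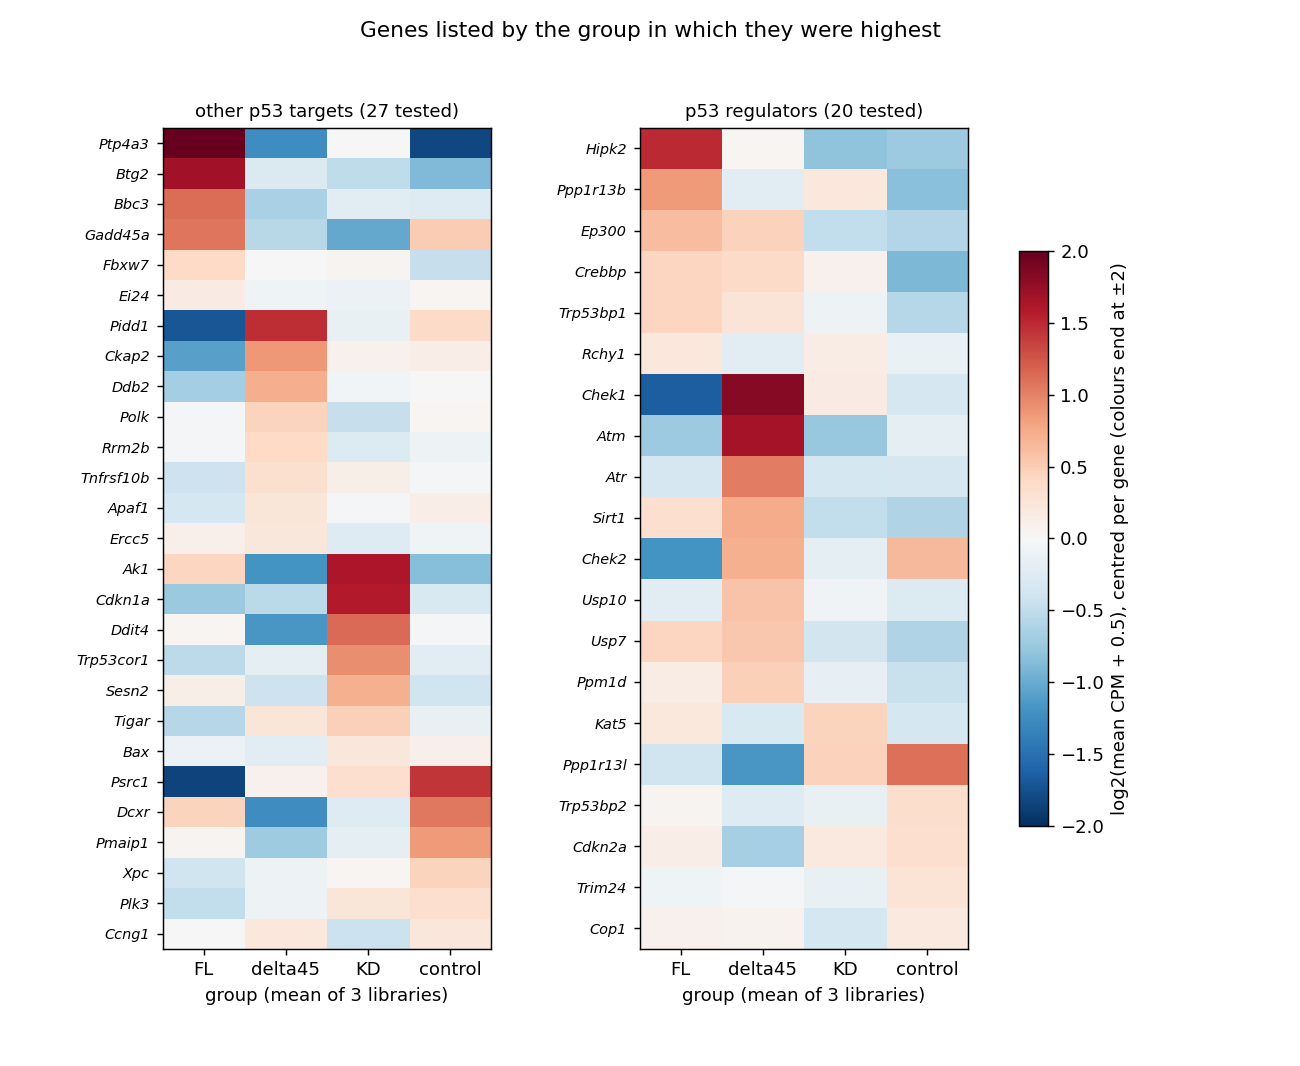
Group means of the 27 tested further p53 targets (left) and 20 p53 regulators (right), as log2(mean CPM + 0.5) centred on each gene's mean over the 4 groups, with genes ordered by the group in which they were highest. Ptp4a3, Btg2 and Hipk2 stand out in FL, Chek1 and Pidd1 in delta45, Cdkn1a in KD and Psrc1 in control.

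All 20 further regulators of p53 were tested. In delta45 minus KD 11 were higher and 5 lower, against 29.2% and 30.7% of all tested genes, and the median log2 change was 0.55, beside -0.01 for all tested genes. There were 7 higher and 3 lower in FL minus KD (26.3% and 31.7%), and 7 higher and 6 lower in FL minus delta45 (25.8% and 27%). In KD minus control 6 were higher and 5 lower (25.6% and 24.1%). Relative to control, 9 were higher and 5 lower in FL (28.1% and 31.2%), and 11 higher and 4 lower in delta45 (31.9% and 32.5%). With library totals only, 5 were lower in FL minus KD and 3 higher in FL minus delta45. All tested genes shifted under that scaling, to median log2 changes of -0.33 and -0.28. In a fit to the 6 libraries of KD and control alone, 3 were higher and 3 lower in KD. Shares of all tested genes in these settings are not given here, so these counts are not results about the regulators.

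Among the regulators, 6 of the 20 were highest in FL, 8 in delta45, 1 in KD and 5 in control. The same count over all tested genes was not made, so this split is not read as a trait of the regulators. Atm, the kinase that answers double-strand breaks and phosphorylates p53, held 26.7, 20.7 and 19.5 CPM in FL, 132, 116 and 111 CPM in delta45, 31.0, 21.3 and 13.2 CPM in KD, and 30.5, 34.0 and 33.6 CPM in control. Every delta45 library lay above every other library. Atm rose 5.46-fold in delta45 relative to KD (log2 change 2.45 ± 0.23, edgeR adjusted p = 3.12e-06) and was 5.39-fold lower in FL than in delta45 (edgeR adjusted p = 1.86e-06). Chek1, a checkpoint kinase of replicating cells, averaged 7.99 ± 0.667 CPM in FL, 93.9 ± 9.58 CPM in delta45, 29.6 ± 5.61 CPM in KD and 20.6 ± 5.49 CPM in control (SD, n = 3 each). It rose 3.17-fold in delta45 and fell 3.72-fold in FL relative to KD (edgeR adjusted p = 1.09e-05 and 5.77e-06). Chek2, the checkpoint kinase downstream of ATM, rose 1.87-fold in delta45 and fell 2.07-fold in FL relative to KD (edgeR adjusted p = 5.82e-05 and 2.21e-05), and its delta45 and control libraries overlapped.

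Usp7, a deubiquitinase of MDM2 and p53, rose 1.72-fold in FL and 1.87-fold in delta45 relative to KD (edgeR adjusted p = 0.000247 and 9.68e-05), and FL and delta45 were not called different (log2 change -0.11 ± 0.13, edgeR adjusted p = 0.487). The acetyltransferase gene Ep300 rose 2.15-fold in FL and 1.93-fold in delta45 relative to KD (edgeR adjusted p = 0.000664 and 0.00188). Hipk2, a kinase that phosphorylates p53, averaged 383 ± 101 CPM in FL, 139 ± 11.1 CPM in delta45, 77.2 ± 40.8 CPM in KD and 81.3 ± 12.1 CPM in control (SD, n = 3 each). It rose 4.95-fold in FL relative to KD (edgeR adjusted p = 8.6e-05) and 2.75-fold relative to delta45 (edgeR adjusted p = 0.00223). Ppm1d, a phosphatase that switches p53 signalling off and is itself a p53 target, was 1.58-fold higher in delta45 than in KD (edgeR adjusted p = 0.000118). Cdkn2a, whose ARF product holds MDM2 away from p53, was 1.83-fold lower in delta45 than in KD (edgeR adjusted p = 0.00135), and its counts do not tell ARF from the INK4A product of the same gene. Ppp1r13l, which encodes the p53 inhibitor iASPP, fell 1.82-fold in FL and 3.16-fold in delta45 relative to KD (edgeR adjusted p = 0.00288 and 2.73e-05). Usp10, another deubiquitinase of p53, was 1.75-fold lower in FL than in delta45 (edgeR adjusted p = 2.58e-05).

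In KD minus control, the acetyltransferase genes Crebbp and Kat5 were 1.98-fold and 1.76-fold higher (edgeR adjusted p = 0.0101 and 0.000822). Trp53bp1, a damage response adaptor gene, was 1.39-fold higher there (edgeR adjusted p = 0.0108). Trp53bp2, which encodes a p53 cofactor, was 1.42-fold lower and Trim24, a ubiquitin ligase gene for p53, 1.34-fold lower (edgeR adjusted p = 0.00228 and 0.00663). Kat5 was also 1.70-fold lower in delta45 than in KD (edgeR adjusted p = 0.000949).

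Of the 3 ribosomal protein genes whose products can bind MDM2, Rpl5 was 2.44-fold higher in delta45 than in KD (edgeR adjusted p = 0.0015) and 2.76-fold higher than in control (0.000519), and 2.01-fold lower in FL than in delta45 (0.00741). Rpl23 was 1.82-fold lower in FL, 2.45-fold lower in delta45 and 1.86-fold lower in KD than in control (edgeR adjusted p = 0.00122, 4.36e-05 and 0.00131). Rpl11 was called in 1 comparison, 1.56-fold lower in FL than in delta45 (edgeR adjusted p = 0.0238). Ribosomal protein genes have many near-identical processed copies, so these values are uncertain.

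The genes whose profile over the 12 libraries lay nearest to those of the p53 core were found by the root mean square distance between log2 CPM profiles, each centred on its own mean. The search covered 9409 tested genes with a mean of 5 CPM or more. Genes without a symbol and those with clone, predicted-gene or pseudogene names were left out, Trp53-ps among them. Nearest to Trp53 were Alad, a heme synthesis enzyme, at a distance of 0.126, the proton pump subunit gene Atp6v0a1 at 0.153 and the cytokine signalling inhibitor Cish at 0.158. Alad averaged 1038 CPM in FL, 499 CPM in delta45, 283 CPM in KD and 306 CPM in control. Nearest to Mdm2 were the casein kinase gene Csnk1a1 at 0.0897, the DNA-binding factor gene Arid3b at 0.0928 and Atxn7l3b at 0.122. Nearest to Mdm4 were Fam126b at 0.267, Zc3h12c at 0.271 and Mblac2 at 0.274.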

How the data were processed

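Per the labels' protocols, extraction used the RNeasy kit and library preparation the TruSeq V2 kit, and nothing states that strand was used in counting. The submitters' processing notes list TopHat 1.4.1, HTSeq 0.5.3p9, cutadapt 1.1 and DESeq 1.10.1 and the build mm9. For their settings and the annotation, the sources used here give nothing. The deposited values are raw counts per Ensembl gene. The 5 closing rows that name no gene, the largest being reads aligned to several places (38.69 to 53.31% of tallied reads), were left out. Symbols for 32919 of 37991 identifiers came from a supplied table.

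Counts were filtered by filterByExpr (12837 genes kept). TMM scaling followed (factors 0.8705 to 0.88 in FL and 1.0024 to 1.1137 elsewhere), and glmQLFit and glmQLFTest of edgeR 4.0.16 (R 4.3.3) fitted a mean for each group over all 12 libraries. The SE is the absolute log2 change over the root of F. The test was checked on simulated counts. The genes and lists were chosen with earlier results of these data known. All 10 genes and Cdkn1a were named, with up to 4 called genes per list, comparison and direction by adjusted p; a gene so named may be given in any comparison. No pair of libraries in a group agreed within counting noise (smallest chi-square per degree of freedom 2.216).

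Equal replicate numbers deviated together in FL and KD (correlations of deviations from group means 0.29, 0.121 and 0.271) and in delta45 and KD (0.294, 0.174 and 0.102). The highest correlations with another KD number were -0.016, 0.135 and -0.122 for FL, and -0.144, 0.067 and 0.123 for delta45. FL number 2 and delta45 number 3 thus lay slightly closer to another KD number. This partial pairing comes from the data and not from the labels. Alternatives were DESeq2 1.42.0, other scalings and filters, 2-group fits, a test against a fold of 1.5, replicate blocks and each library left out. Bounds for 0 counts use 3 reads per library.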

Additional observations from a re-analysis of the deposited data

Results flagged for a closer look

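For 9 genes of the 59 tested in the 4 lists, FL and delta45 were called on opposite sides of KD and differed from each other by a direct test (edgeR, FL minus delta45). The same held for 1011 of all 12837 tested genes (7.88%). Both constructs were set against the same KD libraries.

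Lower in FL and higher in delta45 than in KD were Aen (FL minus delta45, log2 -1.27), Ddb2 (-1.44), Pidd1 (-3.34), Ckap2 (-1.98), Chek1 (-3.56) and Chek2 (-1.95). For Aen the FL side, -0.32 against KD, was lost in most alternatives. Higher in FL and lower in delta45 than in KD were Dcxr, a metabolic reductase gene (log2 1.77), Ptp4a3 (4.31) and Ppp1r13b, which encodes a p53 cofactor (1.08). The edgeR adjusted p of the difference ranged from 1.82e-08 for Chek1 to 4.06e-05 for Ddb2.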

How the results depend on the processing

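Leaving out the test against a fold of 1.5, 31 of 40 called changes of the 9 tested genes and Cdkn1a kept their call and direction under every alternative run. The 31 include Gdf15 in each comparison with control, and that gene had to differ because it passed the filter only through control. The test against a fold of 1.5 called 4 of the 9 in FL minus KD, 3 in delta45 minus KD, 3 in FL minus delta45, 2 in KD minus control, 3 in FL minus control and 2 in delta45 minus control; for the further targets the counts were 12, 8, 11, 9, 9 and 6, and for all tested genes 3510, 3506, 3233, 2387, 3835 and 4596. It asks for a larger change by construction. Gdf15 is again among the 9 in each comparison with control, and its calls there are no support. With library totals only, 3 of the 9 were called in FL minus delta45, against 5 with TMM. The share of all tested genes called under that scaling is not given here. Leaving out each library in turn gave 5 to 7 of the 9 in FL minus KD, 5 to 7 in delta45 minus KD, 4 to 6 in FL minus delta45, 4 to 5 in KD minus control, 6 to 7 in FL minus control and 6 to 8 in delta45 minus control. All tested genes gave 6476 to 7946, 6601 to 8334 and 5772 to 7544 calls in the first 3 of these comparisons. They gave 5543 to 7300, 6766 to 8492 and 7546 to 9046 calls in the last 3.

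Signs turned only in changes that were not called. Phlda3, FL minus control, was -0.005 with RLE scaling, -0.212 with library totals only, -0.005 with DESeq2, -0.002 in the 2-group fit, and -0.131 to -0.036 when FL replicate 2 or control replicate 1 or 3 was left out (-0.065 without the last), within a range of -0.131 to 0.191 over all libraries left out. Trp53, KD minus control, was 0.023 with library totals only, 0.153 without KD replicate 1 and 0.025 without control replicate 1, within -0.183 to 0.153. Sesn1, KD minus control, was 0.048 with library totals only, 0.035 without KD replicate 3 and 0.052 without control replicate 3, within -0.042 to 0.052. Zmat3 was -0.104 with library totals only and -0.012 without FL replicate 1 in FL minus delta45 (-0.012 to 0.272), and -0.009 without KD replicate 3 in delta45 minus KD (-0.009 to 0.434). Trp53inp1, KD minus control, was 0.007 without KD replicate 2 and 0.257 without control replicate 3 (-0.356 to 0.257). Gdf15 was -0.335 without delta45 replicate 2 in delta45 minus KD (-0.335 to 0.821) and 0.005 without FL replicate 1 in FL minus KD (-3.654 to 0.005). The cause was not tested.

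With a replicate block over all 12 libraries, 7 of the 9 were called in FL minus KD, 5 in delta45 minus KD, 5 in FL minus delta45, 5 in KD minus control, 7 in FL minus control and 8 in delta45 minus control, where Mdm4 was added (adjusted p = 0.025). Of all 12837 tested genes, that block called 7627, 7849, 6936, 6593, 7819 and 8408 in the same order of comparisons. In FL minus delta45, where not every same-numbered correlation passed 0.1 (lowest 0.054), the block over 9 libraries also called Trp53inp1 (adjusted p = 0.00112). Beyond these and the values given with each gene, the blocks changed no other call of the 9 genes or Cdkn1a. Between control and the other groups, same-numbered correlations were 0.193 (FL), 0.219 (delta45) and 0.333 (KD) for number 2, and -0.255 to -0.043 for numbers 1 and 3. Depth limits Gdf15 and Eda2r, with at most 24 reads in a library.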

Other observations

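The p53 relatives were all but unread in these cells. Trp63 had 0 reads in the 12 libraries, which allows 0.141 to 0.349 CPM per library, and Trp73 had 3 reads in FL, 6 in delta45, 1 in KD and 3 in control. Among the further p53 targets, Perp, a desmosomal death effector, had 33, 3 and 2 reads in KD replicates 1, 2 and 3 and 0 in the other 3 groups, the death receptor gene Fas had 3 reads in FL, 7 in KD and 0 in delta45 and control, and the kinase gene Plk2 had 1 read in FL and 0 elsewhere. These 5 genes were not tested.

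Bbc3, which encodes the death factor PUMA and is named here after its values were seen, averaged 216 ± 29.2 CPM in FL, 62.9 ± 9.49 CPM in delta45, 85.5 ± 38.8 CPM in KD and 83.2 ± 28.97 CPM in control (SD, n = 3 each). FL lay above every other library.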
